A study of Mus musculus with 8 samples.

Results

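The genes described here encode 10 ion channel proteins with known roles in macrophages: Kcnn4, Kcna3, Kcnj2, Kcnk6 and Kcnk13 (potassium channels), P2rx4 and P2rx7 (ATP-gated cation channels), Hvcn1 (a proton channel), and Lrrc8a and Lrrc8d (subunits of an anion channel). They were picked by gene symbol from a table of 55401 genes. All 10 passed the filter of 0.5 CPM or more in 1 library or more (CPM are a library's counts scaled to a common total), which left 15202 genes for testing. Kcnn4 and Lrrc8d were picked because of their changes in these same libraries, so their values are a description without a test, and the tests below concern the other 8 genes.

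Poly(A) RNA of hepatic macrophages was sequenced in 8 libraries, 2 in each of 4 groups. Libraries labelled normal came from WT mice on a standard diet, and libraries labelled steatotic from MC4R-KO mice, which lack the melanocortin 4 receptor, after 6 to 10 weeks on a Western diet. All mice had the C57BL/6J background, all cells were taken with antibodies to F4/80 on magnetic columns and kept on collagen-coated plates, and every library was made after 24 hours with either vehicle (Veh) or cholesterol crystals (CC) at 500 μg/ml. Genotype and diet changed together and cannot be told apart, and F4/80 is shared by resident Kupffer cells and macrophages derived from monocytes. The mice were male and 8 weeks of age when the Western diet began, with WT mice of matched age.

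Total counts ranged from 58668655 to 74529462 per library, so that 3 counts correspond to 0.0403 to 0.0511 CPM. Mc4r had 0 counts in the 4 libraries labelled normal and 22 to 72 counts in the 4 labelled steatotic, which goes against the labels, so every direction between the livers below rests on the labels. The 9 macrophage markers summed to 16666 to 24071 CPM in each library. Markers of other cells also differed by label: the 6 monocyte markers lay between 6.87 and 9.95 CPM in sum with the label normal and between 88.1 and 128.9 CPM with the label steatotic. The 8 hepatocyte markers went the other way, with sums of 50.5 to 59.4 CPM and of 1.89 to 2.52 CPM. The endothelial list summed to 142.3 to 174.4 CPM with the label normal and to 217.3 to 245.9 CPM with the label steatotic, and the list of platelets and erythroid cells, led by Pf4, to 12.1 to 15.2 CPM and to 68.5 to 81.3 CPM. The endothelial markers were mixed. From normal Veh to steatotic Veh the mean of Pecam1 rose from 26.1 to 95.2 CPM and that of Kdr from 11.7 to 33.9 CPM. Stab2 fell from 25.7 to 19.8 CPM and Tek went from 4.73 to 4.35 CPM. Some lists also moved with CC. The Kupffer cell list summed to 3051 to 3113 CPM in normal Veh, 2394 to 2602 CPM in normal CC, 4453 to 4495 CPM in steatotic Veh and 2934 to 3453 CPM in steatotic CC. Its members went opposite ways between the livers at Veh. From normal Veh to steatotic Veh the mean of Clec4f fell from 134.8 to 92.2 CPM and that of Marco from 366.3 to 92.9 CPM. The other 4 markers were higher in steatotic Veh. Without Cd5l, its highest marker, the Kupffer cell list summed in the same order to 1132 to 1166, 783.6 to 816.7, 1291 to 1373 and 648.5 to 725.1 CPM. In that order again, the list of stellate cells and fibroblasts, led by Dcn, summed to 3.0, 5.80 to 7.42, 17.9 to 21.1 and 108.2 to 135.6 CPM, and the neutrophil list, led by Mmp8, to 56.3 to 59.2, 89.0 to 90.7, 99.6 to 102.5 and 259.1 to 263.0 CPM. These were single genes: without Dcn the first list summed to 0.102 to 0.936 CPM in each library, highest in normal Veh, and without Mmp8 the second summed to 9.08 to 9.94, 14.4 to 14.9, 4.48 to 5.50 and 18.5 to 19.5 CPM, nearly all of it S100a8. The list led by Pf4 summed to 0.128 to 0.801 CPM without it. The part of these cells in the differences between the livers and with CC was not tested. In bulk RNA, fewer cells of a type and less RNA per cell cannot be told apart. The labels do not say whether the 2 libraries of a group came from separate animals or cultures, so the p-values measure only the spread between these libraries, which may be technical.

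Ion channels set the membrane potential of a macrophage, its calcium entry, its volume and the pH of its compartments. Potassium channels pull the membrane potential to negative values, which keeps the driving force for calcium high, and loss of cell potassium through channels such as P2X7 and TWIK-2 is a known trigger of the NLRP3 inflammasome. KCa3.1, the product of Kcnn4, opens when calcium binds to the calmodulin attached to it, and it is known from activated T cells and macrophages. The volume-regulated anion channel is built from LRRC8A together with partner subunits, of which LRRC8D favours the passage of organic osmolytes and some drugs.

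The 250 bases before the RefSeq start of Kcnn4 and of Lrrc8d are shown because these genes had the largest log2 differences of the 10, Kcnn4 between the livers and Lrrc8d with CC under the label normal. Both are on the plus strand of GRCm38.p6, at chr7:24370013-24370262 and chr5:105699719-105699968. Capitals mark the E-box CACGTG, a hexamer recognized by TFEB, a regulator of lysosomal genes, and by other factors.
Kcnn4: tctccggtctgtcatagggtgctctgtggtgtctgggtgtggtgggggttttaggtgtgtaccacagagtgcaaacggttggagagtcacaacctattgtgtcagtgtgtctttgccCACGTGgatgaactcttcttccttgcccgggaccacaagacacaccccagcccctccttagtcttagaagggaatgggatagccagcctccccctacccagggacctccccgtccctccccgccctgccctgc
Lrrc8d: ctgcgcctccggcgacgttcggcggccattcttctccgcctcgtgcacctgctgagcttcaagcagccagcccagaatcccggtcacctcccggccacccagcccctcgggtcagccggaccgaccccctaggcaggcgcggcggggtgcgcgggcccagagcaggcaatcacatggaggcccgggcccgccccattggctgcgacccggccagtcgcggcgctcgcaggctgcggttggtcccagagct

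The E-box of Kcnn4 begins 133 bases before the start. Among 32851 mouse promoters of the same length, 6.02% held this E-box. The AP-1 motif TGANTCA was in 6.75% and the EGR motif GCGNGGGCG, searched on both strands, in 4.70%. Of the 8 genes with an entry in the promoter table, Kcnn4, Kcnj2 and Lrrc8a held the E-box, P2rx7 held both the AP-1 and the EGR motif in 1 of its 2 windows and none of these letters in the other, and the windows of Kcna3, Kcnk13, P2rx4 and Lrrc8d held none of these letters. A match of letters is a description and not a binding site.

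Kcnn4 was 19.5 times as high with the label steatotic as with the label normal at Veh. Kcna3, Hvcn1, Kcnk13 and P2rx4 rose with the label steatotic, whereas Kcnj2 fell. With CC, Lrrc8d was lower under both labels, Kcnk6 fell and P2rx7 rose under both labels, and Kcnj2 and Hvcn1 rose and Kcnk13 fell with the label steatotic. P2rx4 had the highest level of the 10 for its length in all 4 groups.

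Of the 8 tested channel genes, 4 were higher and 1 was lower with the label steatotic at Veh, where 30.7% of all tested genes passed the same test, 16.4% as higher and 14.3% as lower (edgeR's quasi-likelihood test, Benjamini-Hochberg adjusted p under 0.05). CC against Veh gave 1 higher and 1 lower with the label normal (background 11.8%, of which 6.27% higher and 5.54% lower). It gave 3 higher and 2 lower with the label steatotic (background 22.9%, of which 12.0% higher and 10.9% lower). The difference between these CC responses passed the test for none of the 8 genes by edgeR (background 3.22%, of which 1.95% higher and 1.27% lower) or by DESeq2 (background 4.83%). At an unadjusted p under 0.05 it counted 2 of the 8 genes with either tool, Kcnj2 and Hvcn1 by edgeR, where 14.2% of all tested genes counted by edgeR and 12.0% by DESeq2. With CC present, 4 were higher and 3 lower with the label steatotic (background 28.8%, of which 15.9% higher and 12.9% lower). The 2 groups compared did not overlap for 8 of the 8 genes between the livers at Veh (68.2% of all tested genes), 6 with CC and the label normal (55.7%), 7 with CC and the label steatotic (61.7%), and 7 between the livers with CC (65.5%), so the absence of overlap was common among all genes. The median log2 difference of the 8 genes was 0.30 between the livers at Veh and 0.10 with CC, and it was 0.05 and 0.17 for CC under the labels normal and steatotic, while the median of all tested genes lay between -0.01 and 0.01. The comparisons share groups and are not independent.

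**Figure D1:**
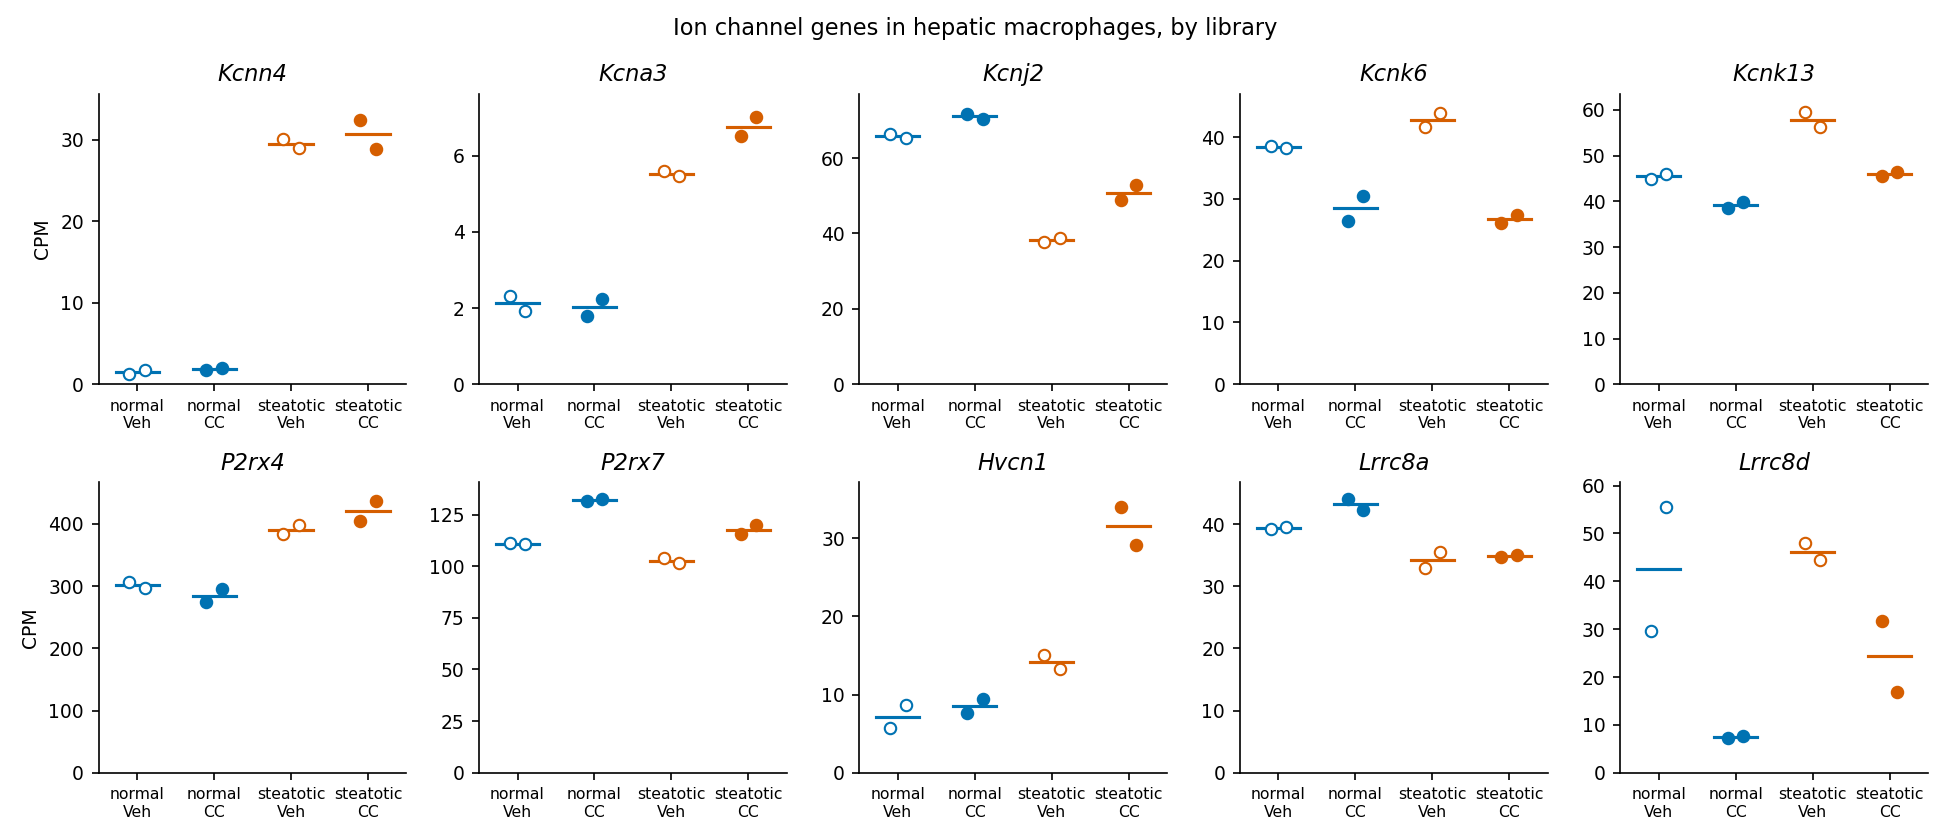
CPM of each of the 10 ion channel genes (vertical axis, from 0, with its own scale in each panel) in the 8 libraries, grouped by label and treatment on the horizontal axis, with open points for Veh, filled points for CC and bars for the mean of 2 libraries. The Kcnn4 points of the label normal lay between 1.29 and 1.98 CPM and those of the label steatotic between 28.9 and 32.4 CPM, and the 2 Lrrc8d points stood far apart in the groups normal Veh and steatotic CC.

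Kcnn4 (ENSMUSG00000054342.8, plus strand of chromosome 7, bases 24370263 to 24386690 in GRCm38) encodes KCa3.1, the calcium-activated potassium channel of intermediate conductance. Its level was 1.29 and 1.74 CPM in the libraries normal Veh 1 and 2, and 1.71 and 1.98 CPM in normal CC 1 and 2. In steatotic Veh 1 and 2 it was 30.1 and 29.0 CPM, and in steatotic CC 1 and 2 it was 32.4 and 28.9 CPM. All 4 libraries labelled steatotic were therefore far above all 4 labelled normal, and the Veh and CC libraries overlapped within each label. The mean rose from 1.51 ± 0.316 to 29.5 ± 0.810 CPM at Veh (SD, n = 2 each), a 19.5-fold ratio, and from 1.85 ± 0.186 to 30.7 ± 2.50 CPM with CC, a 16.6-fold ratio. On the log2 scale of the fit the liver difference was 4.33 (SE 0.160) at Veh and 4.08 (SE 0.158) with CC. The CC response was 0.32 (SE 0.159) with the label normal and 0.07 (SE 0.134) with the label steatotic. Only 91 to 116 counts stood behind the values labelled normal, against 2057 to 2154 with the label steatotic, and without normal Veh 1 or normal Veh 2 the liver difference at Veh was 4.13 or 4.56. The other members of the KCNN family, Kcnn1, Kcnn2 and Kcnn3, reached at most 0.290, 0.151 and 0.322 CPM in any library and did not pass the filter.

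The summed levels of the monocyte markers and of the T or NK cell markers without Il7r were also higher in each library labelled steatotic than in any labelled normal. With the label steatotic the monocyte sum was 123.3 to 128.9 CPM at Veh and 88.1 to 102.2 CPM with CC, while the Kcnn4 values of these treatments overlapped. Of the 15 T or NK cell markers, Il7r alone gave 158.0 to 170.6 CPM at Veh and 334.3 to 634.7 CPM with CC. The remaining markers summed to 2.47 to 3.64 CPM with the label normal and to 21.3 to 27.6 CPM with the label steatotic. KCa3.1 and Kv1.3 are both known from T cells as well as from macrophages, and the part of these cells in the levels of Kcnn4 and Kcna3 was not tested.

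**Figure D2:**
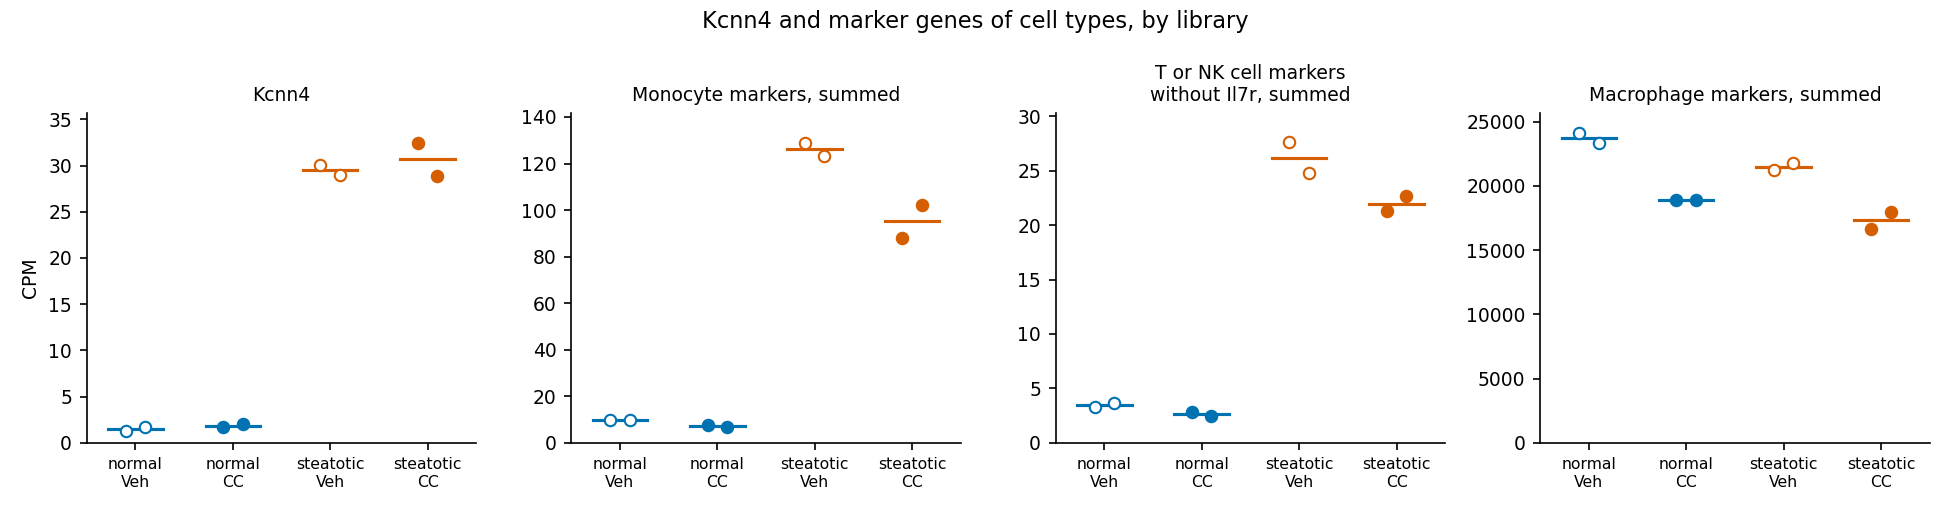
CPM of Kcnn4 and summed CPM of the monocyte markers, the T or NK cell markers without Il7r, and the macrophage markers (vertical axes, from 0, each with its own scale) by library and group, with open points for Veh, filled points for CC and bars for means of 2 libraries. Kcnn4, the monocyte sum and the T or NK cell sum were all higher in the 4 libraries labelled steatotic, whereas the macrophage sum was lower with CC than with Veh under both labels.

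Kcna3 (ENSMUSG00000047959.4, chromosome 3, bases 107036169 to 107038070, plus strand) encodes Kv1.3, a voltage-gated potassium channel. It measured 2.32 and 1.93 CPM in normal Veh 1 and 2, 1.78 and 2.25 CPM in normal CC 1 and 2, 5.59 and 5.46 CPM in steatotic Veh 1 and 2, and 6.51 and 7.0 CPM in steatotic CC 1 and 2. The labels did not overlap, and Veh and CC overlapped with the label normal only. Kcna3 rose by 1.42 on the log2 scale with the label steatotic at Veh (SE 0.177, adjusted p = 0.000712) and by 1.77 with CC (SE 0.179, adjusted p = 0.000287). Neither CC response passed the test: it was -0.04 with the label normal (adjusted p = 0.919) and 0.31 with the label steatotic (adjusted p = 0.262).

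Kcnj2 (ENSMUSG00000041695.2, chromosome 11, bases 111066164 to 111076821, plus strand) encodes Kir2.1, the inward rectifier that sets the resting potential in macrophages. Unlike Kcna3 and Kcnk13 it was called lower with the label steatotic. Its levels were 66.3 and 65.4 CPM in normal Veh, 71.7 and 70.3 CPM in normal CC, 37.6 and 38.7 CPM in steatotic Veh, and 48.9 and 52.7 CPM in steatotic CC. None of the 4 groups overlapped. Kcnj2 fell by 0.74 with the label steatotic at Veh (log2, SE 0.0542, adjusted p = 4.58e-05) and by 0.46 with CC (SE 0.0539, adjusted p = 0.000638). With CC it rose by 0.43 under the label steatotic (SE 0.0541, adjusted p = 0.00101), and the change of 0.15 under the label normal did not pass the test (adjusted p = 0.141). The difference between these CC responses was 0.28 (SE 0.0762) and failed the correction (unadjusted p = 0.00654, adjusted p = 0.114).

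Kcnk6 and Kcnk13 encode TWIK-2 and THIK-1, members of the family with 2 pore domains that carries background potassium current; Kcnk6 lies on the minus strand of chromosome 7 (bases 29221926 to 29232515) and Kcnk13 on the plus strand of chromosome 12 (bases 99964499 to 100062682). Kcnk6 measured 38.6 and 38.3 CPM in normal Veh, 26.5 and 30.5 CPM in normal CC, 41.6 and 43.9 CPM in steatotic Veh, and 26.1 and 27.3 CPM in steatotic CC. Every CC library was below every Veh library, whatever the label. With CC, Kcnk6 fell by 0.40 under the label normal (log2, SE 0.0813, adjusted p = 0.0194) and by 0.66 under the label steatotic (SE 0.0814, adjusted p = 0.000904). The call under the label normal was lost without normal Veh 1 (adjusted p = 0.0852), normal Veh 2 (0.0735) or normal CC 1 (0.0900, log2 -0.30). Between the livers its differences were 0.20 at Veh (adjusted p = 0.107) and -0.06 with CC (adjusted p = 0.616).

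Kcnk13 measured 44.8 and 46.0 CPM in normal Veh, 38.5 and 39.8 CPM in normal CC, 59.5 and 56.1 CPM in steatotic Veh, and 45.4 and 46.5 CPM in steatotic CC. Steatotic Veh was the highest group and normal CC the lowest, and steatotic CC overlapped normal Veh. Kcnk13 rose by 0.39 with the label steatotic at Veh (log2, SE 0.0561, adjusted p = 0.00146) and by 0.26 with CC (SE 0.0562, adjusted p = 0.0116). The latter call was lost without normal CC 1 (log2 0.23, adjusted p = 0.0677) or steatotic CC 2 (log2 0.24, adjusted p = 0.0564). CC lowered it by 0.31 under the label steatotic (SE 0.0561, adjusted p = 0.00564), and the value under the label normal was -0.18 (adjusted p = 0.0879). The difference between the CC responses was -0.26 for Kcnk6 (SE 0.115, adjusted p = 0.359) and -0.13 for Kcnk13 (SE 0.0794, adjusted p = 0.526).

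P2rx4 and P2rx7 are neighbours on the plus strand of chromosome 5, with P2rx7 at bases 122643911 to 122691432 and P2rx4 at bases 122707544 to 122729738. P2X4 is found largely in endolysosomes, and P2X7 responds to high ATP outside the cell. P2rx4 measured 306.4 and 296.4 CPM in normal Veh, 273.8 and 295.6 CPM in normal CC, 383.1 and 398.1 CPM in steatotic Veh, and 404.3 and 436.7 CPM in steatotic CC. All libraries labelled steatotic were above all labelled normal. P2rx4 rose by 0.42 with the label steatotic at Veh (log2, SE 0.0537, adjusted p = 0.000831) and by 0.59 with CC (SE 0.0538, adjusted p = 0.000174). Its CC responses were -0.05 with the label normal (adjusted p = 0.672) and 0.12 with the label steatotic (adjusted p = 0.155), and the test of their difference gave an adjusted p of 0.373.

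P2rx7 rose with CC under both labels. Its levels were 111.4 and 110.6 CPM in normal Veh, 131.6 and 132.5 CPM in normal CC, 104.0 and 101.3 CPM in steatotic Veh, and 115.6 and 119.8 CPM in steatotic CC, with no overlap of groups. With CC, P2rx7 rose by 0.29 under the label normal (log2, SE 0.0405, adjusted p = 0.00374) and by 0.21 under the label steatotic (SE 0.0405, adjusted p = 0.00742), and the latter call was lost without steatotic Veh 2 (log2 0.19, adjusted p = 0.0593). The liver difference at Veh was -0.07 (adjusted p = 0.260). With CC it was -0.14 (SE 0.0404, adjusted p = 0.0366), a call that was lost with DESeq2 (adjusted p = 0.0953), with no filter on low counts (0.0902), with only the 4 libraries compared (0.0695), with the replicate number as a block (0.0567), and in 6 of 8 fits that each left out 1 library, with the highest adjusted p of 0.143 without steatotic CC 1. Of the other P2X genes, P2rx1 had 0 counts in every library, P2rx3 reached at most 0.234 CPM, and P2rx2, P2rx5 and P2rx6 stayed below that.

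Hvcn1 (ENSMUSG00000064267.13, chromosome 5, bases 122206804 to 122242297, plus strand) encodes HV1, a voltage-gated proton channel that lets protons leave the cell during the oxidative burst. It measured 5.67 and 8.65 CPM in normal Veh, 7.67 and 9.41 CPM in normal CC, 15.1 and 13.2 CPM in steatotic Veh, and 34.0 and 29.1 CPM in steatotic CC. With the label steatotic both CC libraries were above both Veh libraries, whereas the CC and Veh libraries labelled normal overlapped. Hvcn1 rose by 1.03 with the label steatotic at Veh (log2, SE 0.215, adjusted p = 0.0116) and by 1.91 with CC (SE 0.218, adjusted p = 0.000913). CC raised it by 1.17 under the label steatotic (SE 0.212, adjusted p = 0.00814), against 0.29 under the label normal (adjusted p = 0.468). The difference between the CC responses was 0.88 (SE 0.301) and failed the correction (unadjusted p = 0.0233, adjusted p = 0.242). The liver call at Veh was lost without steatotic Veh 1 (log2 0.93, adjusted p = 0.0653), and the CC call without steatotic Veh 2 (log2 1.08, adjusted p = 0.0653). Exons of Hvcn1 share 1574 bases with exons of Tctn1 on the opposite strand, which had 553 to 936 counts, and the strand setting of the counting is not given in the sources used here, so reads of these 2 genes may not be fully separated.

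Lrrc8a (chromosome 2, bases 30237715 to 30263790, plus strand) encodes the subunit that every volume-regulated anion channel needs. It measured 39.2 and 39.6 CPM in normal Veh, 44.0 and 42.3 CPM in normal CC, 33.0 and 35.5 CPM in steatotic Veh, and 34.6 and 35.1 CPM in steatotic CC. Libraries labelled steatotic were below all those labelled normal. Lrrc8a fell by 0.28 with the label steatotic in the presence of CC (log2, SE 0.0621, adjusted p = 0.0122), a call that was lost without normal CC 1 (log2 -0.25, adjusted p = 0.0680) or steatotic CC 1 (log2 -0.27, adjusted p = 0.0542). The value at Veh was -0.16 (adjusted p = 0.0967), and the CC responses were 0.17 (adjusted p = 0.141) and 0.04 (adjusted p = 0.692) with the labels normal and steatotic. Its exons share 2853 bases with the gene model Gm28035, which had 14 to 170 counts, so the split between the 2 models is uncertain.

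Lrrc8d (ENSMUSG00000046079.16, chromosome 5, bases 105699969 to 105832436, plus strand) had the largest response to CC of the 10 genes under the label normal and also the largest spread between replicates. It measured 29.7 CPM in normal Veh 1 and 55.4 CPM in normal Veh 2, and 7.26 and 7.67 CPM in normal CC 1 and 2. With the label steatotic it measured 47.9 and 44.4 CPM in Veh 1 and 2, and 31.8 CPM in CC 1 and 16.9 CPM in CC 2. All CC libraries labelled normal were below all Veh libraries, and the same held with the label steatotic, while CC 1 labelled steatotic lay above Veh 1 labelled normal. The mean went from 42.6 ± 18.2 to 7.46 ± 0.291 CPM with the label normal and from 46.2 ± 2.48 to 24.3 ± 10.5 CPM with the label steatotic (SD, n = 2 each). On the log2 scale the CC response was -2.48 (SE 0.437) with the label normal and -0.91 (SE 0.411) with the label steatotic, a difference of 1.57 (SE 0.587).

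The replicates of Lrrc8d differed 1.87-fold in normal Veh and 1.88-fold in steatotic CC. Among 9996 genes with a mean of at least 5 CPM, 1.65% and 1.53% had a ratio as large in these groups. Its CC response was -1.95 without normal Veh 2 and -2.86 without normal Veh 1, and with the label steatotic it was -1.43 without steatotic CC 1 and -0.52 without steatotic CC 2. The difference between the responses ranged from 1.04 without normal Veh 2 to 1.95 without steatotic CC 2. The liver difference, 0.16 at Veh (SE 0.407), became 0.68 without normal Veh 2 and -0.22 without normal Veh 1, and with CC it was 1.73 (SE 0.428), or 1.21 without steatotic CC 1.

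Neither of the other partner subunit genes above the filter, Lrrc8b and Lrrc8c, was called lower with CC. Lrrc8c averaged 27.4 ± 1.89 CPM in normal Veh, 26.4 ± 0.232 in normal CC, 38.7 ± 1.49 in steatotic Veh and 48.0 ± 1.97 in steatotic CC. It rose with the label steatotic by 0.54 at Veh (log2, SE 0.0735, adjusted p = 0.00109) and by 0.89 with CC (SE 0.0739, adjusted p = 0.000108). CC under the label steatotic raised Lrrc8c by 0.33 (adjusted p = 0.0159) and Lrrc8b by 0.64 (adjusted p = 0.00962), where Lrrc8d was lower. These 2 calls were each lost without steatotic CC 1, and also without steatotic Veh 2 for Lrrc8c (highest adjusted p = 0.100) and without steatotic Veh 1 for Lrrc8b (highest adjusted p = 0.0667). Lrrc8e reached at most 0.256 CPM and did not pass the filter.

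**Figure D3:**
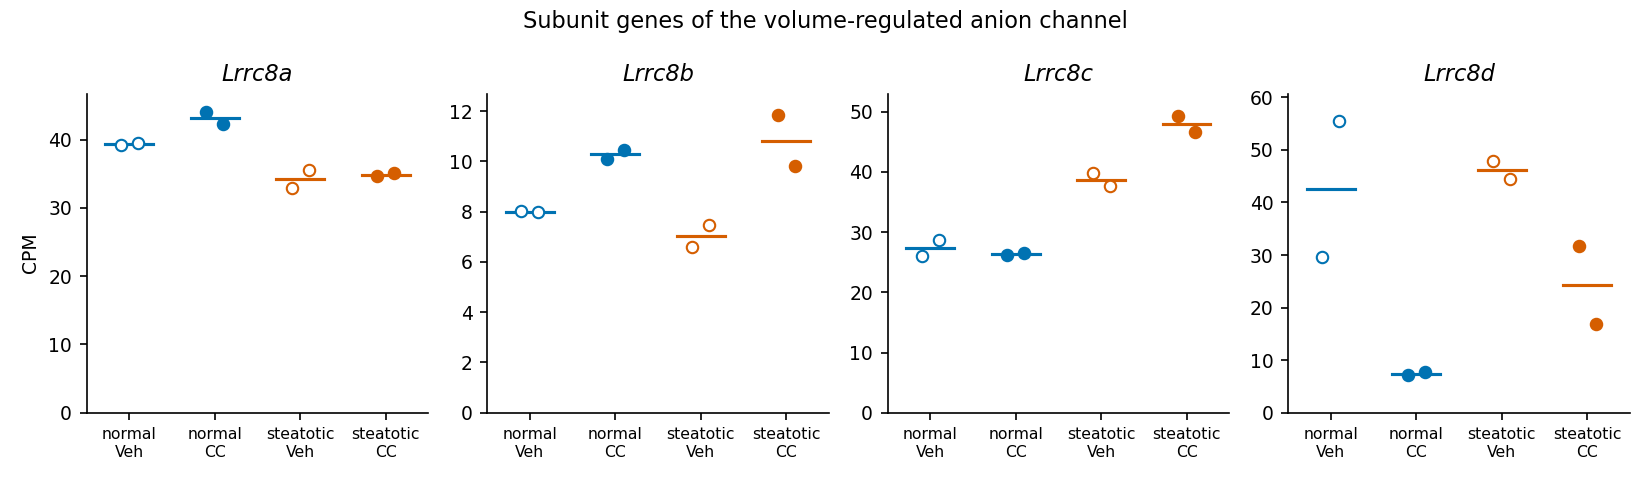
CPM of Lrrc8a, Lrrc8b, Lrrc8c and Lrrc8d (vertical axes, from 0, each with its own scale) by library and group, with open points for Veh, filled points for CC and bars for means of 2 libraries. Lrrc8d was lower with CC than with Veh under both labels, whereas both CC points of Lrrc8b lay above both Veh points under each label.

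Levels can be set beside each other between genes only per length, here as CPM per kilobase of merged exons. P2rx4 was first in all 4 groups, at 42.9, 40.5, 55.6 and 59.9 CPM per kilobase in normal Veh, normal CC, steatotic Veh and steatotic CC. P2rx7, Kcnk13 and Kcnj2 followed with the label normal at Veh, at 18.6, 14.6 and 12.1 CPM per kilobase. Kcnn4 was the lowest of the 10 with the label normal, at 0.296 at Veh and 0.361 with CC, and with the label steatotic it was seventh at Veh with 5.77 and eighth with CC with 6.00, above Kcna3 and Lrrc8d in both. Most neighbours in these orders did not overlap between libraries. The exceptions were Lrrc8d and Hvcn1 in normal Veh, Hvcn1 and Lrrc8d in steatotic Veh, and in steatotic CC both Kcnj2 with Hvcn1 and Kcnk6 with Kcnn4.

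**Figure D4:**
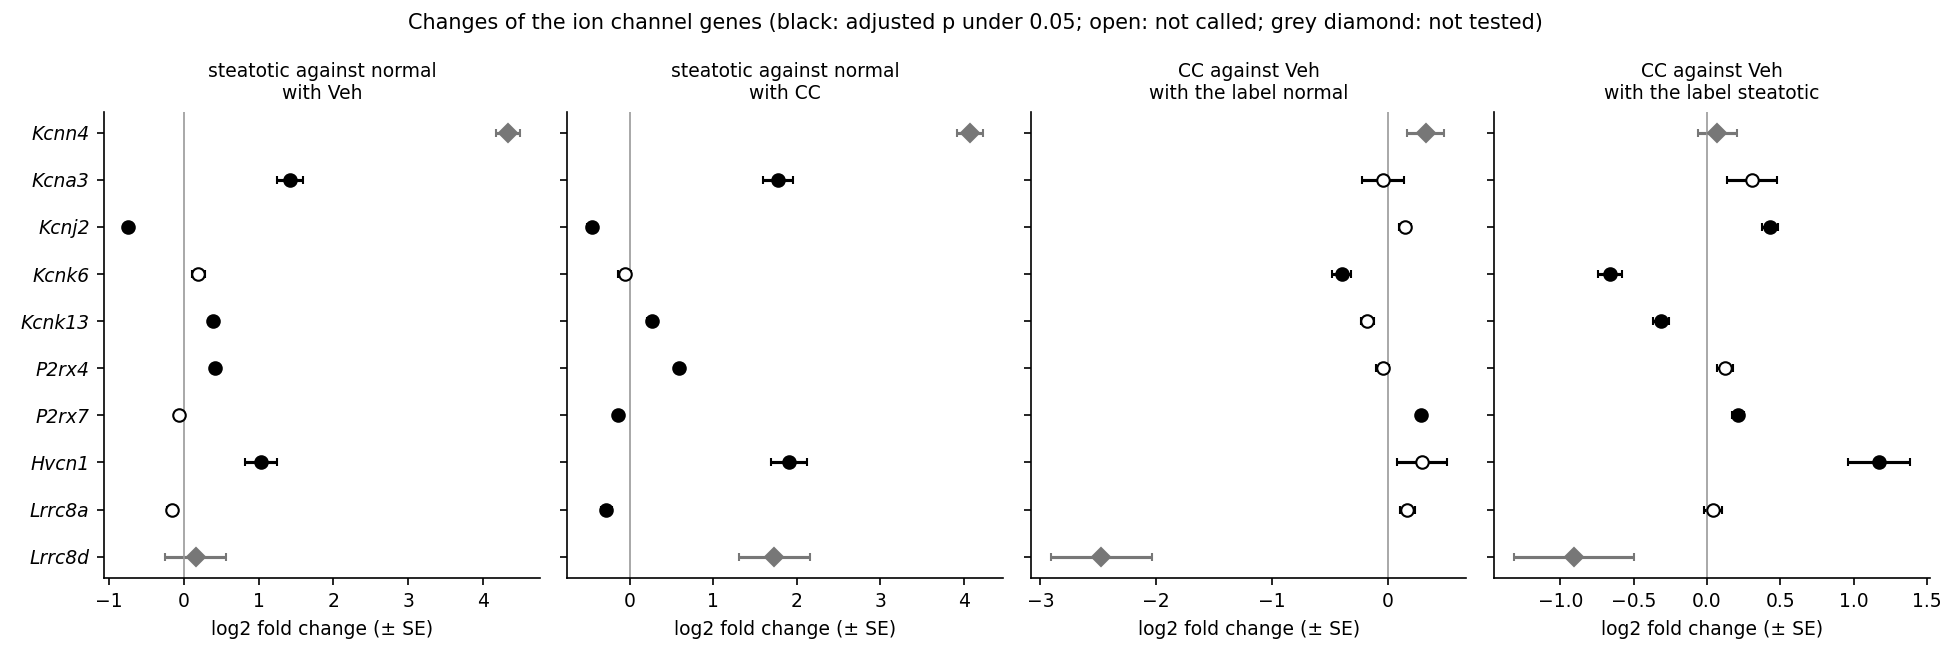
Log2 fold change of the 10 ion channel genes in 4 comparisons (horizontal axis, with a range of its own in each panel; bars are 1 SE from the edgeR fit), with filled black points for an adjusted p under 0.05, open points for genes that did not pass, and grey diamonds for Kcnn4 and Lrrc8d, which were not tested. Kcnn4 stands at 4.33 and 4.08 in the 2 liver comparisons, and Lrrc8d at -2.48 and -0.91 in the 2 comparisons of CC with Veh.

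Other channel and transporter genes give the surroundings of these members. Of 171 further symbols, 87 passed the filter, and of these 21 were higher and 18 lower with the label steatotic at Veh, or 44.8% against 30.7% of all genes. CC gave 5 higher and 8 lower under the label normal (14.9% against 11.8%) and 17 higher and 16 lower under the label steatotic (37.9% against 22.9%). The difference between the CC responses was called for 2 in each direction (4.60% against 3.22%), and with CC 20 were higher and 13 lower with the label steatotic (37.9% against 28.8%). The remainder of the potassium channel family had 15 of 88 symbols above the filter, of which 3 were higher and 1 was lower with the label steatotic at Veh. This was 26.7% against 30.7% of all genes, so these calls were no more common than among genes in general.

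Among these potassium channel genes Kcnj8, an ATP-sensitive inward rectifier, rose by 1.88 on the log2 scale with the label steatotic at Veh (SE 0.354, adjusted p = 0.00554), from 0.432 ± 0.0505 to 1.55 ± 0.191 CPM. Kcnj10, the inward rectifier Kir4.1, was lower with the label steatotic and with CC: 34.9 ± 0.199 CPM in normal Veh, 17.0 ± 0.589 in normal CC, 19.9 ± 1.69 in steatotic Veh and 8.45 ± 0.852 in steatotic CC. It fell by 0.77 with the label steatotic at Veh (adjusted p = 0.000761), and with CC by 1.00 under the label normal (adjusted p = 0.000661) and by 1.22 under the label steatotic (adjusted p = 0.000108). With CC present, Kcnab1, a subunit of voltage-gated channels, was higher by 1.63 with the label steatotic (adjusted p = 0.00172) and Kcnj16 lower by 0.87 (adjusted p = 0.0194), the latter a call lost in all 4 fits that left out a CC library (highest adjusted p = 0.0773). Kcnj8 was higher there by 1.65 (adjusted p = 0.00896), a call lost without normal CC 2 (0.0530) or steatotic CC 1 (0.0570).

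Fxyd2, a regulator of the sodium pump, fell with the label steatotic by 1.61 at Veh (log2, SE 0.192, adjusted p = 0.000566) and by 1.79 with CC (SE 0.195, adjusted p = 0.000424). Slc9a9, an endosomal sodium-proton exchanger, averaged 12.6 ± 0.540 CPM in normal Veh, 3.59 ± 0.0882 in normal CC, 46.9 ± 0.911 in steatotic Veh and 7.37 ± 1.11 in steatotic CC. CC lowered Slc9a9 by 1.78 under the label normal (adjusted p = 0.000109) and by 2.65 under the label steatotic (adjusted p = 5.28e-06). Panx1, a large-pore channel that releases ATP, fell with the label steatotic by 1.34 at Veh (adjusted p = 8.23e-05) and by 0.88 with CC (adjusted p = 0.000829).

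Of the endolysosomal list of 15 genes, CC raised 2 and lowered 1 under the label normal and raised 6 and lowered 2 under the label steatotic. These calls were 20% of the list against 11.8% of all tested genes under the label normal, and 53.3% against 22.9% under the label steatotic. Mcoln2, a lysosomal cation channel of the TRPML family, rose by 0.54 under the label normal (log2, adjusted p = 0.000906) and by 0.92 under the label steatotic (adjusted p = 2.63e-05). Clcn7, the lysosomal chloride-proton exchanger, rose by 0.35 (adjusted p = 0.00248) and 0.82 (adjusted p = 1.87e-05). The difference between the CC responses was 0.46 for Clcn7 (adjusted p = 0.0107) and 0.39 for Mcoln2 (adjusted p = 0.0467), and it was -0.87 for Slc9a9 (adjusted p = 0.0276) and -1.15 for Stim1, the calcium sensor of store-operated entry (adjusted p = 0.00870). Leaving out any 1 library lost the call for Mcoln2 (highest adjusted p = 0.156), and leaving out any library but the 2 of steatotic CC lost it for Slc9a9 (highest adjusted p = 0.102).

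Calmodulins, kinases, phosphatases and other known regulators of KCa3.1 were looked at beside Kcnn4. Of 10 such genes 9 passed the filter, and 2 were lower with the label steatotic at Veh: Calm3, a calmodulin gene, by 0.18 on the log2 scale (adjusted p = 0.0212) and Nme2, a histidine kinase that activates the channel, by 0.27 (adjusted p = 0.0297). CC under the label normal lowered Calm2 by 0.32 (adjusted p = 0.0380) and Nme2 by 0.43 (adjusted p = 0.00984), where DESeq2 called 1 of the 9 higher and 2 lower (8.0% and 6.87% of the genes it tested). Under the label steatotic none of the 9 passed by edgeR, with 1 higher and 2 lower at an unadjusted p under 0.05 (17.0% and 16.5% of all tested genes) and 1 lower by DESeq2 (11%). With CC present, Trim27, an inhibitor of the channel, was lower by 0.26 with the label steatotic (adjusted p = 0.0207). The called share of the 9 was 22.2% against 30.7% of all tested genes between the livers at Veh and 11.1% against 28.8% with CC, and with CC it was 22.2% against 11.8% under the label normal and 0% against 22.9% under the label steatotic. All 5 of these calls were lost when certain single libraries were left out: Calm3 without normal Veh 1 or steatotic Veh 2 (highest adjusted p = 0.121), Nme2 without any 1 of the 4 Veh libraries in the liver comparison (0.144) and without normal Veh 1 in the CC comparison (0.0576), Calm2 in 6 of 8 fits (0.181), and Trim27 without normal CC 1 or either steatotic CC library (0.105).

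The genes most like Kcnn4 were looked for among 9375 protein-coding genes with a mean of at least 5 CPM, by the Euclidean distance between log2 profiles over the 8 libraries after each was centred on its mean. Among the 5 nearest were Adra1a, an adrenergic receptor, at a distance of 0.70, Morn4 at 0.75, Il2rb, a chain of the interleukin-2 receptor, at 0.88, and Ms4a8a at 0.98. Adra1a averaged 2.20 ± 0.410 CPM in normal Veh and 30.7 ± 8.06 CPM in steatotic Veh, with 2.50 ± 0.179 and 32.7 ± 2.15 CPM under CC. All points of such a profile share their libraries and depth with Kcnn4, and the steps between the labels make up most of it.

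For Lrrc8d the nearest profiles were farther away: Nek7, a kinase that binds NLRP3, at 1.10, Rnf150 at 1.48, Adgre4 at 1.58, the complement gene C1qb at 1.59 and Timd4, a Kupffer cell marker, at 1.63. Nek7 measured 139.9 and 136.3 CPM in normal Veh, 37.8 and 36.5 CPM in normal CC, and 159.4 CPM in both steatotic Veh libraries. In steatotic CC it measured 135.0 CPM in library 1 and 42.5 CPM in library 2, so the same pair of libraries stood apart for Nek7 and for Lrrc8d, and in both the value of library 1 was the higher. In normal Veh, where Lrrc8d differed between replicates, the 2 values of Nek7 were close.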

How the data were processed

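Poly(A) RNA-seq libraries of F4/80-selected hepatic macrophages were prepared with a directional kit. Per the paper's methods and the submitters' processing notes, reads were trimmed with fastp, mapped to mm10 with HISAT2 and quantified with StringTie, whose versions are not given in the sources used here. Estimated counts of 55401 genes were taken from the 1 table the authors deposited, whose values are whole numbers and not normalized. Small values are multiples of 4 more often (35.0 to 36.5% of values from 1 to 20) than large ones are (23.9 to 27.0% of values from 100 to 1000), so 1 fragment may stand for about 4 counts. Counting error would then be 18.6 to 21.0% for Kcnn4 with the label normal, and the floors given cover counting error only.

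CPM were computed from total counts. The 15202 genes that reached 0.5 CPM in any library were tested with edgeR 4.0.16 in R 4.3.3 (TMM, robust glmQLFit, glmQLFTest) in 1 model with 4 group means, with Benjamini-Hochberg adjustment over all tested genes and a threshold of 0.05. With 2 libraries per group no permutation test of a single gene can reach that threshold. Gene positions and exon lengths came from GENCODE release M21 (GRCm38), and promoters from a RefSeq table of GRCm38.p6 with entries for 8 of the 10 members. The procedure was tested on simulated data. Alternatives were DESeq2 1.42.0, other size factors, filters and prior counts, counts divided by 4, a replicate block, fits with fewer libraries and leaving out each library.

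The members and gene lists were chosen with earlier results of these data known. Named were the members, P2X and LRRC8 relatives above the filter, KCa3.1 regulators that passed the test, genes among the 5 nearest profiles of Kcnn4 and of Lrrc8d, and a selection from the up to 5 highest and 5 lowest called channel genes of each comparison with a mean of at least 1 CPM; 2 genes that the rule names are not reported here.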

Additional observations from a re-analysis of the deposited data

How the results depend on the processing

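For the 8 tested channel genes, 645 of 672 values under an alternative kept their direction and their side of the threshold, 20 lost a call, 2 gained one and 5 changed sign. The gains came with library size as the only scaling (Kcnk13 with CC and the label normal, log2 -0.22; Lrrc8a between the livers at Veh, -0.20). The signs changed only among values that were not called and only when 1 library was left out, with ranges of -0.22 to 0.12 for Kcna3 and -0.10 to 0.0086 for P2rx4 (CC, label normal), -0.16 to 0.042 for Kcnk6 (between the livers with CC) and -0.015 to 0.096 for Lrrc8a (CC, label steatotic). Leaving out 1 library moved the number of called members to 1 to 2 (CC, label normal), 3 to 5 (CC, label steatotic) and 4 to 7 (livers with CC), and that of other channel genes to 18 to 34 (CC, label steatotic) and 2 to 4 (difference between the CC responses); fewer samples were then fitted. The other settings kept each total count of calls within 1.5 times. By direction, DESeq2 moved the other channel genes called higher with CC and the label normal from 5 to 8, and library size as the only scaling moved the members called lower from 1 to 2, between the livers at Veh and with CC and the label normal.

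The deviations of same-numbered libraries gave 6 correlations between groups, from -0.00224 to 0.189 over 9996 genes, of which 3 were over 0.1. Not every pair of groups was over 0.1, so the numbers were not taken as pairs in the main fit. The correlation of Veh with CC was 0.144 under the label normal and 0.164 under the label steatotic. Between normal CC and steatotic Veh it was 0.189. A pairing of Veh with CC within each label alone was not fitted, so it was not tested. With the replicate number as a block, 5, 2, 5, 0 and 6 members were called in the 5 comparisons, against 5, 2, 5, 0 and 7 without it. It lost the calls for P2rx7 between the livers with CC (adjusted p = 0.0567), Calm2 with CC and the label normal (0.0766) and Mcoln2 in the difference between the CC responses (0.0827). With 2 libraries per group, values near the threshold and genes near the 0.5 CPM filter are the least certain.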
